A study of Mus musculus with 2 samples.

Results

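The 32 genes described here code for the glucose and lactate transporters, the enzymes of glycolysis and a set of genes that respond to low oxygen. They were taken from a fixed list of names, all of which were found among the 32228 genes of both matrices. No rule on measured values chose them, but the list was drawn up with earlier results of these data known. Their UMIs (unique molecular identifiers, each standing for 1 captured RNA molecule) were counted per gene and summed over the list in 11 classes of immune cells. A summed share is the UMIs of the 32 genes as a percentage of all UMIs of a class, and a level is given as CPM, the UMIs of 1 gene per 1000000 UMIs of the class. The reads come from the 3′ end of RNA and were not divided by gene length, so levels were compared between classes and libraries rather than between genes.

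The study compared CD45+ cells of the colonic lamina propria, sorted as negative for the dead-cell dye 7-AAD, from WT and Ring1aKO mice with colitis induced by DSS (dextran sulfate sodium, which injures the colonic epithelium when drunk). Both groups were C57BL/6 mice aged 8 to 10 weeks, and both received DSS, so no untreated colon is part of the comparison. Ring1a is a catalytic subunit of polycomb repressive complex 1, which places ubiquitin on histone H2A. The knockout is a whole-body one, and cells of several mice were pooled into 1 library per genotype. The genotype, the pool of mice and the library therefore cannot be told apart, no test between the groups was possible, and every difference below is a difference between these 2 libraries.

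Glycolysis splits glucose into pyruvate and yields ATP without oxygen, and lactate dehydrogenase and the lactate exporter Slc16a3 (MCT4) carry the pyruvate-derived lactate away. In low oxygen the prolyl hydroxylases Egln1 and Egln3 stop marking the transcription factor HIF-1α, the product of Hif1a, for destruction, and HIF-1α then raises the transcription of most glycolytic enzymes together with Vegfa, Bnip3, Ndrg1 and others. The inflamed colon is poor in oxygen, neutrophils depend largely on glycolysis, and activated T cells and inflammatory macrophages use it heavily.

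Of the barcodes with at least 1000 UMIs, those with at least 500 genes and under 5% mitochondrial UMIs were kept, which gave 6005 cells for WT and 7918 for Ring1aKO, with a median of 6354 and 5035 UMIs per cell. The libraries held 74414511 and 81862096 UMIs in all, and 11 barcodes of kept cells occurred in both. Ring1 RNA was counted at 13.4 CPM (95% interval 12.49 to 14.33) in the library labelled WT and 11.8 CPM (11.02 to 12.66) in that labelled Ring1aKO. Which part of the gene was deleted is not given in the sources used here, so a count at the 3′ end does not check the labels. Cells were placed in classes by marker genes that include none of the 32. Markers kept out of the gates were higher in their class than over the other classes of both libraries, except for Bcl11a in the dendritic class and Cxcl2 in the ILC2 class. Of the gate markers, Ly6c2 was lower in the monocyte-like class than over the others (1098 against 1216 CPM in WT, 362 against 702 CPM in Ring1aKO). Prdm1 was lower in the plasma-like class of WT and H2-DMb2 in the dendritic-like class of Ring1aKO. General T cell markers were set against non-T classes only, and among T cells Themis was lower in the Treg-like class (15.5 and 3.85 CPM) than in the CD4 T-like class (82.9 and 52.5 CPM), as were Bcl11b and Cd28. Cells that passed the gates of more than 1 lineage, 353 in WT and 453 in Ring1aKO, were left out of the classes. Summed markers of mast cells stood at 586 and 319 CPM in the NK-like class and 348 and 265 CPM in the ILC2-like class of WT and Ring1aKO, against 22.2 and 9.63 CPM in the Treg-like class. Fibroblast markers stood at 673 and 907 CPM in the monocyte-like class and at most 106 CPM in the other classes, and erythroid markers at 22.2 and 278 CPM in the B-like and 7.25 and 282 CPM in the plasma-like class. The part of these in the results was not tested.

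The letters ACGTG, 1 form of the core of the sequence HIF-1 is known to bind, were searched in the 250 bases before the start sites of the 32 genes on both strands, where the other strand reads CACGT and the palindrome CACGTG matches on both. Other forms of the core were not searched. RefSeq windows on GRCm38.p6 were at hand for 30 of the 32 genes, the exceptions being Bnip3l and Ndrg1. Of 41 windows of these genes 20 held the letters, or 48.8%, against 16.6% of the 32851 windows of all genes, and among windows with at least 5 CG pairs the shares were 54.1% and 22.9%. Some genes have more than 1 window, and by gene the shares were 60% (18 of 30) and 18.5%. The list was made up of glycolysis and low-oxygen genes, so this comparison describes the list and not these libraries. A match describes letters and is not a bound site. The windows of Pgam1, Ldha, Pkm and Pgk1 are printed as those of the 4 enzymes with the largest Treg-like ratios among the enzymes that hold the letters, and that of Slc16a3 because it was the transporter that set neutrophils apart. The letters in capitals are ACGTG or CACGT, and each sequence reads 5′ to 3′ along the gene. The windows lie at chr19:41911621-41911870 for Pgam1, chr7:46845554-46845803 for Ldha, chr9:59656977-59657226 for Pkm, chrX:106186850-106187099 for Pgk1 and chr11:120948817-120949066 for Slc16a3, all on the plus strand. The bases that follow the windows of Pkm, Pgk1 and Slc16a3 were found at the start of an annotated transcript, those of Pgam1 and of this Ldha window were not, and Ldha and Pkm each have a second RefSeq window without the letters.
Pgam1: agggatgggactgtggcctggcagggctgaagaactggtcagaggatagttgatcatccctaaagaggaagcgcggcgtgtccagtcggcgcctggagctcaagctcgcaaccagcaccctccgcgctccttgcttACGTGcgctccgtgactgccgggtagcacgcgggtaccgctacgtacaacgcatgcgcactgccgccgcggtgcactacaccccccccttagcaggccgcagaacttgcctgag
Ldha: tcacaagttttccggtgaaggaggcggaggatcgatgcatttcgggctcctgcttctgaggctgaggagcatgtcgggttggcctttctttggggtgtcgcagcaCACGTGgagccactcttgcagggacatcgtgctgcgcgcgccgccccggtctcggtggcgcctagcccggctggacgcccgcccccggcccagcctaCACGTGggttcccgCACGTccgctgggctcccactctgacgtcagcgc
Pkm: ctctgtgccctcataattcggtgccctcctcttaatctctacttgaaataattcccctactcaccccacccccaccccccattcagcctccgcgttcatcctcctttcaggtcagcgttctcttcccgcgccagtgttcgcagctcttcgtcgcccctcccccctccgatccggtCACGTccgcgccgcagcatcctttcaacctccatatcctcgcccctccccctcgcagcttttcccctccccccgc
Pgk1: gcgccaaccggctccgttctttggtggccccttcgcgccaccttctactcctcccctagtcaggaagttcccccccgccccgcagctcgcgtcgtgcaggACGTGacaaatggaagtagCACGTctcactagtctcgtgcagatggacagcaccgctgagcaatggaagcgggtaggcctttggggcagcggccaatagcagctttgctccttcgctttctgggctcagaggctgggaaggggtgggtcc
Slc16a3: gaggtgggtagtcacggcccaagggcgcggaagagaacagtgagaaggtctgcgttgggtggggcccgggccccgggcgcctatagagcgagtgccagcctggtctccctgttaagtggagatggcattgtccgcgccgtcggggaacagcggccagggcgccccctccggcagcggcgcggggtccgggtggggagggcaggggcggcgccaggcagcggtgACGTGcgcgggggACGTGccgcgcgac
The Ldha window held 3 separate stretches, the Pgk1 and Slc16a3 windows 2 each, and those of Pgam1 and Pkm 1 each. Egln1, Ddit4 and Aldoa also had windows with the letters. The windows of Gapdh, Tpi1, Eno1 and Mif held neither ACGTG nor CACGT, which does not speak to other forms of the core. The letters were not particular to members that were higher in Treg-like cells. Windows of Hk2, Slc2a1, Bnip3 and Hif1a, which were not higher there, held them too.

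To ask where in the colitic lamina propria the program was strongest, the summed share was compared among the classes. As a share of all UMIs, the neutrophil-like, monocyte-like, C1q macrophage-like and Treg-like classes stood highest and the B-like and plasma-like classes lowest in both libraries. In WT the neutrophil-like class led with 0.676% of its UMIs (95% interval 0.659 to 0.694), followed by the monocyte-like class with 0.600% (0.595 to 0.605), the C1q macrophage-like class with 0.561% (0.550 to 0.572) and the Treg-like class with 0.555% (0.542 to 0.567). The intervals of the last 2 overlap, so their order is not set by these counts. CD4 T-like cells followed with 0.473%, dendritic-like cells with 0.404%, NK-like cells with 0.384%, ILC2-like cells with 0.365% and CD8 T-like cells with 0.357%. B-like cells reached 0.230% and plasma-like cells, which spend most of their RNA on immunoglobulin, 0.125%. These intervals cover counting error only and say nothing of the spread between mice. The order in both libraries also depends on the denominator. Ribosomal protein genes took 2.99% of neutrophil-like UMIs in WT and 3.08% in Ring1aKO. They took 17.8% and 20.3% in monocyte-like, 21.6% and 24.0% in Treg-like and 27.0% and 30.1% in CD4 T-like cells. No order with these genes left out of the denominator is given here.

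In the library labelled Ring1aKO the order at the top, again as a share of all UMIs, was another one. The Treg-like class came first with 0.822% (0.810 to 0.835), above the neutrophil-like class with 0.741% (0.725 to 0.757), the monocyte-like class with 0.700% (0.690 to 0.710), the C1q macrophage-like class with 0.565% (0.553 to 0.577) and the CD4 T-like class with 0.559% (0.549 to 0.568). Dendritic-like cells held 0.467%, ILC2-like cells 0.435%, CD8 T-like cells 0.396%, NK-like cells 0.396%, B-like cells 0.241% and plasma-like cells 0.109%. The share was thus higher than in WT in 10 of the 11 classes (8 of 11 with Gapdh left out), and the median of the 11 log2 ratios, Ring1aKO over WT, was 0.15 (0.07 with Gapdh left out). The interval of the ratio lay above 0 in 8 classes, included 0 in C1q macrophage-like (0.01, -0.03 to 0.05) and NK-like cells (0.04, -0.05 to 0.13), and lay below 0 in plasma-like cells (-0.19, -0.22 to -0.17). The largest ratio was that of Treg-like cells, 0.57 (0.53 to 0.61), a 1.48-fold difference, ahead of ILC2-like (0.25), CD4 T-like (0.24), monocyte-like (0.22) and dendritic-like cells (0.21). The first place of Treg-like cells in Ring1aKO held for summed UMIs only. As a mean over single cells of Ring1aKO, Treg-like cells (0.680%) stood below monocyte-like (0.713%) and neutrophil-like cells (0.703%). The medians over single cells were 0.608%, 0.618% and 0.676%.

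**Figure D1:**
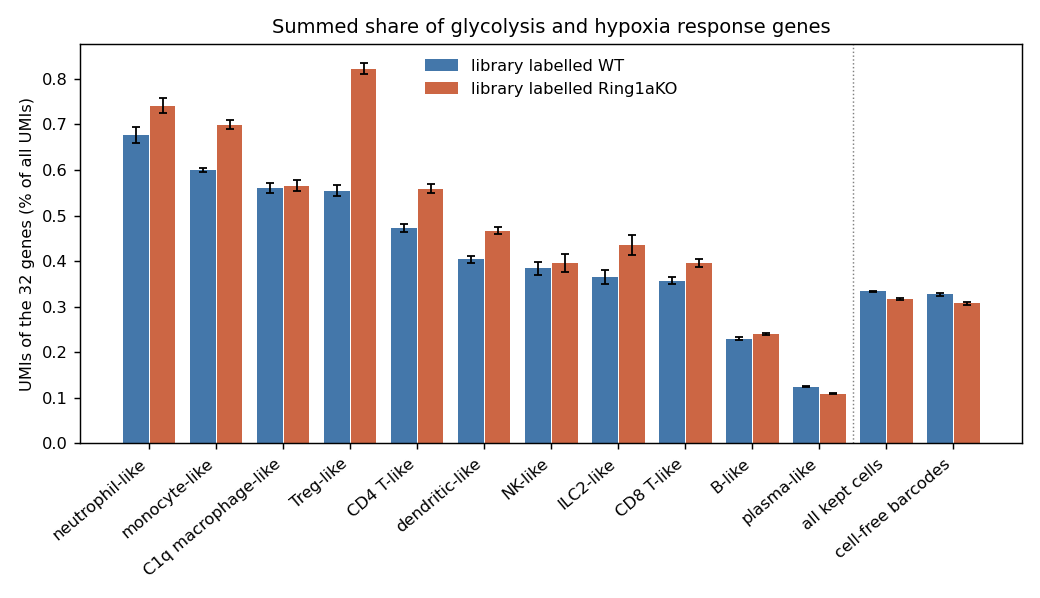
Bars give the UMIs of the 32 genes as a percentage of all UMIs in each class, in all kept cells and in cell-free barcodes for the 2 libraries, with 95% Poisson intervals that cover counting error only. With UMIs summed per class, the Treg-like class stands at 0.555% in WT, where its interval overlaps that of the C1q macrophage-like class. In Ring1aKO it stands first with 0.822%, though not as a mean over single cells (0.680%, against 0.713% in monocyte-like cells). All kept cells together are slightly lower in Ring1aKO.

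Over all kept cells the direction was the opposite, with 0.334% in WT and 0.317% in Ring1aKO. The 2 libraries differ in their makeup, since B-like and plasma-like cells held 51.6% of the UMIs of the 11 classes in WT and 71.9% in Ring1aKO, and monocyte-like cells 21.0% and 4.83%. Over the 11 classes pooled, the share was 0.332% in WT and 0.289% in Ring1aKO. When the Ring1aKO class shares were weighted by the UMIs of the WT classes it was 0.368%, above the WT value. Over all kept cells 17 members passed the level filter of a mean of at least 50 CPM over both libraries, none was at least 1.5-fold higher and 5 were at least 1.5-fold lower, beside 2.65% and 12.3% of all 2306 genes that passed. These were Vegfa with a log2 ratio of -0.78, Slc16a3 and Hif1a with -0.76 each, Hk2 with -0.72 and Pfkp with -0.66. The first 2 and Hk2 stood highest in myeloid or NK-like classes, as the class levels below show.

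The glucose importer Slc2a1 (GLUT1) and the lactate exporter Slc16a3 were highest in neutrophil-like cells of both libraries. Slc16a3 stood at 1444 CPM in WT and 1493 CPM in Ring1aKO in this class, then at 311 and 314 CPM in monocyte-like and 198 and 154 CPM in C1q macrophage-like cells, and no other class exceeded 81.2 CPM. Here and below, cells with at least 2000 UMIs were thinned to 2000 and shallower cells were left out, while unthinned shares cover all cells of a class. Of the thinned neutrophil-like cells, 81.3% in WT and 83.6% in Ring1aKO had a UMI of Slc16a3 (89.4% and 88.7% unthinned). In plasma-like cells, the class with the lowest level, 0.821% and 1.21% had one. Free RNA and the cells' own RNA were not separated in this class. The median depth before thinning was 4140 and 4886 UMIs in neutrophil-like cells and 27490 and 34948 in plasma-like cells. Slc2a1 stood at 161 and 158 CPM in neutrophil-like cells and at 121 and 137 CPM in monocyte-like cells. Neither transporter reached the 1.5-fold mark in any class where it passed the filter.

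Hexokinase 2, the inducible enzyme that traps glucose in the cell, was highest in C1q macrophage-like cells and low in neutrophil-like cells. Hk2 stood at 328 CPM in WT and 334 CPM in Ring1aKO in C1q macrophage-like cells, at 216 and 183 CPM in monocyte-like cells and at 240 and 135 CPM in NK-like cells, but at 46.3 and 23.7 CPM in neutrophil-like cells. The constitutive hexokinase Hk1, the liver-type phosphofructokinase Pfkl and aldolase C (Aldoc) passed the filter in no class. Among the phosphofructokinases, which commit glucose to glycolysis, Pfkp was highest in dendritic-like cells (175 and 154 CPM) and CD8 T-like cells (165 and 116 CPM). The later enzymes of the pathway were broadly present, since Aldoa, Gapdh, Pgk1, Pkm and Ldha, as well as the cytokine Mif, passed in all 11 classes. Gapdh was the most counted of the 32, from 383 CPM in plasma-like to 1340 CPM in neutrophil-like cells of WT and from 313 CPM in plasma-like to 2099 CPM in Treg-like cells of Ring1aKO. Gapdh, Aldoa, Eno1 and Mif have near-identical copies in the mouse genome that can share reads, so their levels are less certain. A second Aldoa entry of the annotation held no UMI in either library.

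The regulators of glycolytic flux were low outside myeloid cells. Pfkfb3, which makes the activator of phosphofructokinase, stood at 150 and 94.0 CPM in neutrophil-like cells, 107 and 95.3 CPM in monocyte-like cells and 99.8 and 94.5 CPM in C1q macrophage-like cells. Pfkfb4 reached 55.3 and 42.0 CPM in neutrophil-like cells. Pdk1, a kinase that holds pyruvate back from the tricarboxylic acid cycle, reached at most 23.5 CPM in any class. Neither passed the filter.

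Hif1a was highest in the Treg-like and CD4 T-like classes of both libraries. In WT it stood at 775 CPM in Treg-like, 719 CPM in CD4 T-like, 438 CPM in monocyte-like, 375 CPM in C1q macrophage-like, 302 CPM in ILC2-like and 271 CPM in neutrophil-like cells. In Ring1aKO the order of the first 2 was turned, with 575 CPM in CD4 T-like and 504 CPM in Treg-like cells. Egln3, the hydroxylase that HIF itself induces, was concentrated in ILC2-like cells, where it stood at 99.8 and 115 CPM against at most 49.5 CPM elsewhere. In cells thinned to 2000 UMIs, 14.5% and 15.9% of ILC2-like cells had a UMI of Egln3 (23.8% and 23.9% unthinned), beside 1.15% and 0.520% of plasma-like cells. Egln1 was highest in the same class, with 60.5 and 72.6 CPM.

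The growth factor Vegfa marked C1q macrophage-like cells (414 and 376 CPM), NK-like cells (311 and 254 CPM) and monocyte-like cells (278 and 285 CPM) and was under 20 CPM in B-like, plasma-like and T-like classes. Ndrg1, a stress-induced growth regulator, was highest in C1q macrophage-like (253 CPM) and dendritic-like cells (158 CPM) of WT and in dendritic-like (242 CPM) and C1q macrophage-like cells (233 CPM) of Ring1aKO. Ddit4 (REDD1), an inhibitor of mTORC1, was highest in Treg-like cells of both libraries (123 and 187 CPM), although its WT level there was close to that in monocyte-like cells (111 CPM). Bnip3l, a receptor for the removal of mitochondria, passed in 10 classes between 58.9 and 163 CPM, whereas its relative Bnip3 stayed at or under 56.4 CPM and passed in none. P4ha1, a subunit of collagen prolyl hydroxylase, passed in 3 classes at up to 77.3 CPM. The vasodilator peptide gene Adm, P4ha2 and Ankrd37 passed in none. Of the 32 genes, 9 passed in no class and 15 had their highest level in the same class in both libraries.

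**Figure D2:**
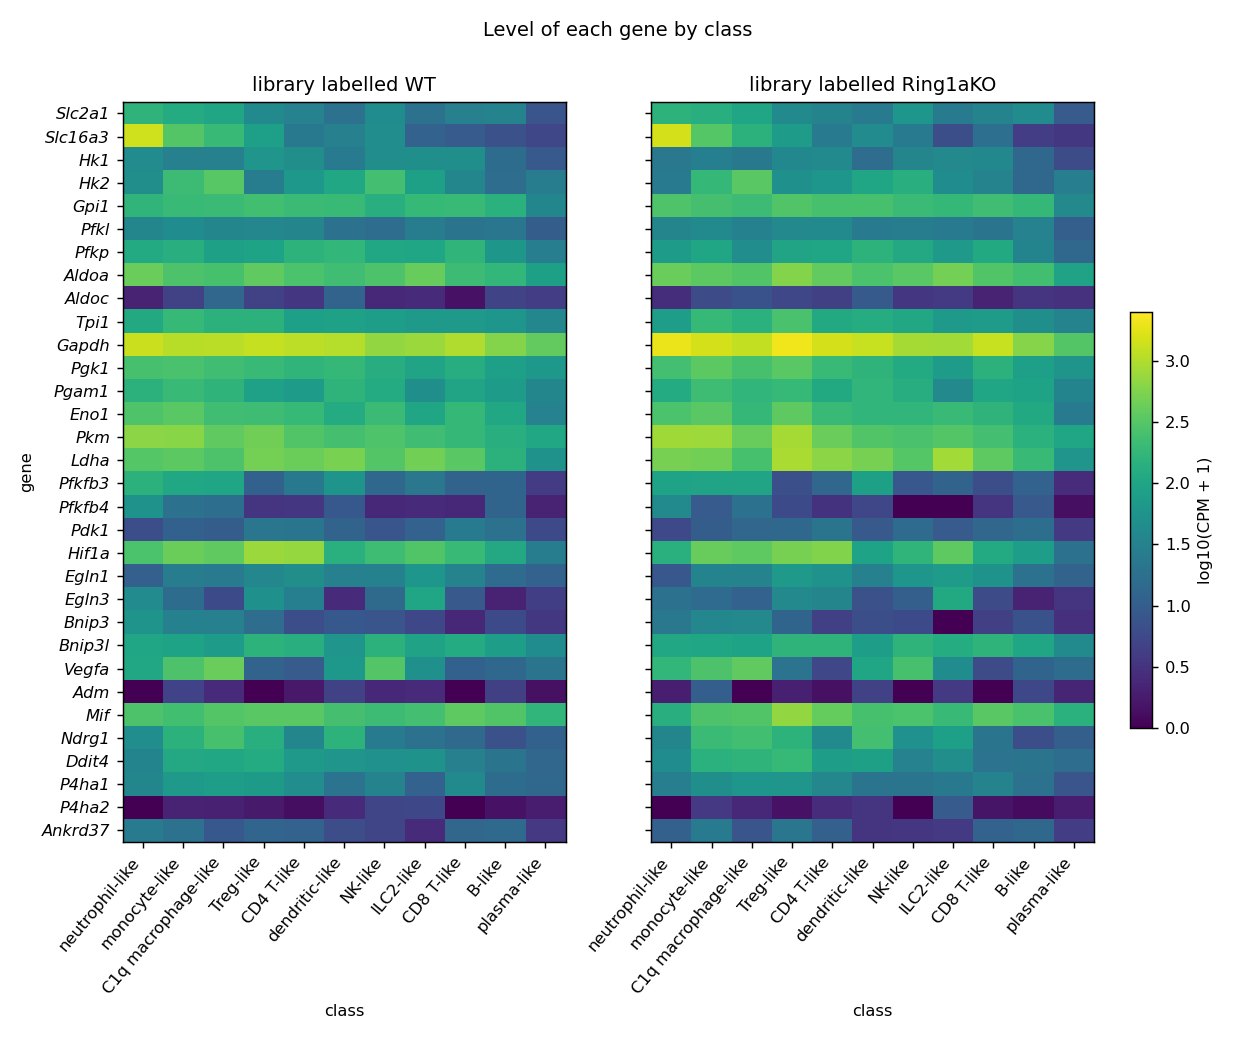
Colour gives the level of each of the 32 genes (rows, log10 of CPM plus 1) in the 11 classes (columns, ordered by the summed share in WT) for each library. Gapdh is bright in every column, Slc16a3 is brightest in neutrophil-like cells, and Adm, P4ha2 and Aldoc are dark throughout.

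Between the libraries, 174 of the 352 pairs of a member and a class passed the filter, and the ratio was at least 1.5-fold higher in 20 and at least 1.5-fold lower in 11, beside 5.25% and 12.8% of the 26977 pairs of all genes and classes that passed. Of the 20 higher pairs 11 fell in the Treg-like class. There 18 of the 32 genes passed, 11 were higher and 1 was lower, beside 9.9% and 17.9% of the 2961 genes that passed in this class. Their median log2 ratio was 0.68, and that of all genes -0.06.

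In Treg-like cells the 8 enzymes that passed from aldolase to lactate dehydrogenase were all at least 1.5-fold higher in the library labelled Ring1aKO. Pgam1, phosphoglycerate mutase, stood at 86.4 CPM (71.5 to 104) in WT and 191 CPM (173 to 211) in Ring1aKO, a log2 ratio of 1.14 (0.84 to 1.46). Ldha stood at 484 CPM (447 to 522) and 928 CPM (887 to 971), a ratio of 0.94 (0.81 to 1.07). Pkm, pyruvate kinase, stood at 454 and 867 CPM, a ratio of 0.93 (0.80 to 1.07). None of these intervals overlapped between the libraries. Triosephosphate isomerase (Tpi1, 151 and 264 CPM), Gapdh (1244 and 2099 CPM), phosphoglycerate kinase (Pgk1, 202 and 335 CPM), enolase (Eno1, 223 and 363 CPM) and aldolase A (Aldoa, 367 and 582 CPM) had ratios from 0.66 to 0.80. The first steps of the pathway were not alike, since Pfkp stood at 93.8 and 95.8 CPM and Gpi1, glucose-6-phosphate isomerase, at 237 and 296 CPM. The 14 glycolytic enzymes together took 0.367% of Treg-like UMIs in WT and 0.615% in Ring1aKO (log2 ratio 0.75), and the other 18 members 0.188% and 0.207% (0.14). Gate markers of the Treg-like class differed as well. Foxp3 (549 and 409 CPM), Ikzf2 (1166 and 603 CPM) and Il2ra (383 and 277 CPM) were lower in Ring1aKO, and Ctla4 was alike (2902 and 2893 CPM). Of the held-out markers, Il10 was lower (876 and 638 CPM) and Tnfrsf4 higher (1195 and 1489 CPM). The part of this makeup in the ratios was not tested.

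The members outside glycolysis went different ways in Treg-like cells. Mif, an inflammatory cytokine, stood at 335 CPM (305 to 368) in WT and 711 CPM (675 to 748) in Ring1aKO, a ratio of 1.08. Egln1 stood at 36.9 and 66.9 CPM (0.84) and Ddit4 at 123 and 187 CPM (0.59). Hif1a was the member that was lower, at 775 CPM (729 to 823) in WT and 504 CPM (473 to 535) in Ring1aKO, a ratio of -0.62. It was no longer 1.5-fold lower with ratios centred on all genes, with immunoglobulin, ribosomal protein and mitochondrial genes out of the denominator, as a mean over cells, or with deep or proliferating cells left out. After thinning, 69.3% and 68.9% of Treg-like cells had a UMI of Hif1a, so the share of cells did not follow the level. Slc16a3, Bnip3l, Ndrg1 and P4ha1 had ratios from -0.24 to 0.17. Ldha was found in 50.2% (43.2 to 57.3) of thinned WT and 65.3% (58.7 to 71.5) of thinned Ring1aKO Treg-like cells (79.0% and 87.2% unthinned), with 9.36% and 9.53% in plasma-like cells.

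**Figure D3:**
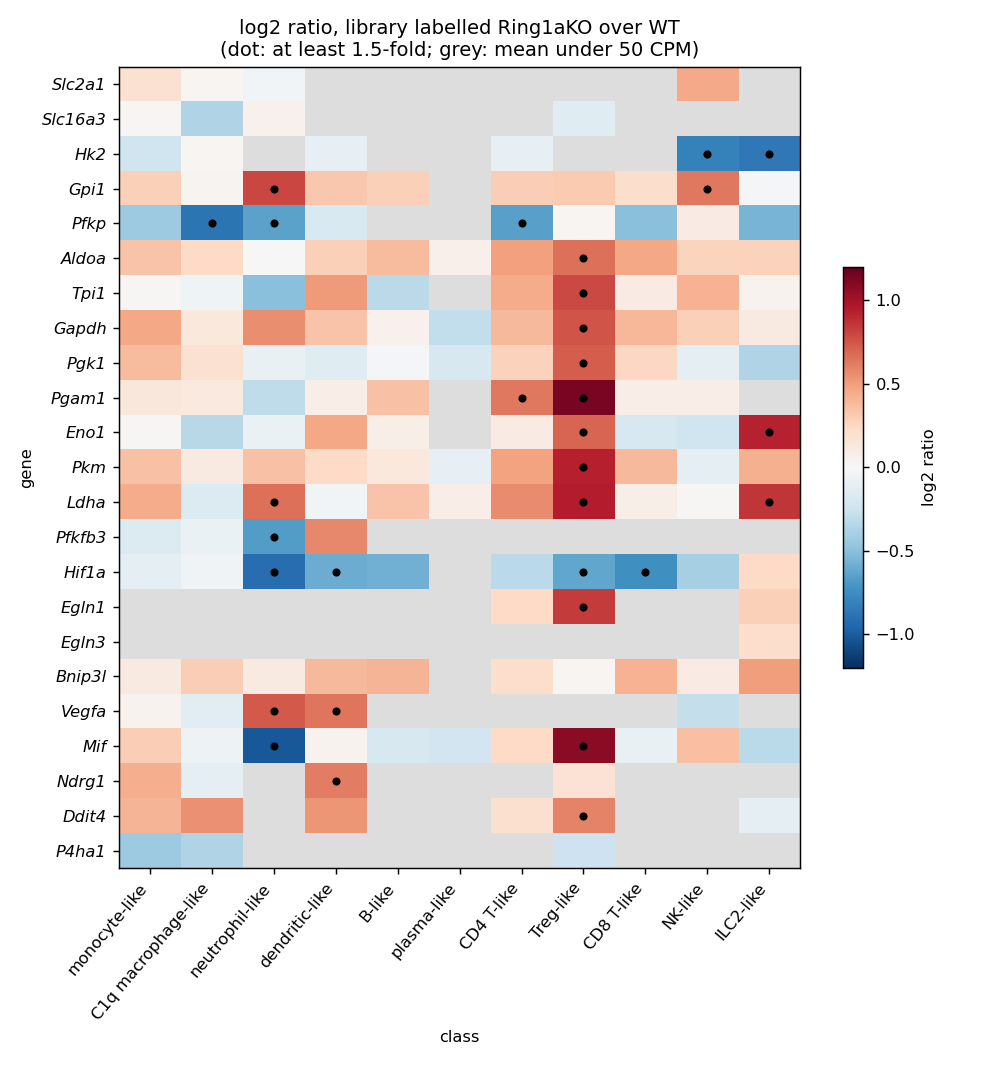
Colour gives the log2 ratio of the level in the library labelled Ring1aKO over WT for the 23 members that passed in at least 1 class, by class. Dots mark ratios of at least 1.5-fold and grey marks pairs under a mean of 50 CPM. The Treg-like column holds 11 of the 20 higher dots, and the Hif1a row is blue in 9 of its 10 filled cells.

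The Treg-like difference varied with the depth of the cells. Of 205 WT and 227 Ring1aKO Treg-like cells, 2 and 20 held at least 20000 UMIs, and in both libraries the summed share was larger in deeper cells. From 3000 to below 6000 UMIs the share was 0.468% over 108 WT cells and 0.555% over 103 Ring1aKO cells. From 6000 to below 10000 UMIs it was 0.577% (61 cells) and 0.714% (55 cells), and from 10000 to below 20000 UMIs 0.607% (25 cells) and 0.836% (39 cells). From 1000 to below 3000 UMIs the intervals overlapped, with 0.455% over 9 cells and 0.504% over 10 cells. The Ring1aKO value was the higher one in all 5 bands. Over single cells the median share was 0.484% in WT and 0.608% in Ring1aKO, with the 10th and 90th percentiles at 0.266% and 0.784% in WT and at 0.380% and 1.11% in Ring1aKO. Cells are not replicates, and these values describe 2 libraries.

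Proliferation genes were also higher in Treg-like cells of the library labelled Ring1aKO, and their part in the difference was not tested. Of 8 such genes 6 passed and 4 were at least 1.5-fold higher in Ring1aKO, beside 9.9% of 2961 genes. They were led by Stmn1 (96.0 and 330 CPM, log2 ratio 1.77), Birc5 (36.2 and 92.9 CPM, 1.34) and Hmgb2 (704 and 1151 CPM, 0.71). Below the filter, Cdk1 was higher (13.3 and 45.7 CPM, 1.72) and Cenpf lower (39.9 and 18.8 CPM, -1.08). Mki67 had a UMI in 19.5% of WT and 18.5% of Ring1aKO Treg-like cells, and its level was alike (129 and 133 CPM, 0.04). The 8 genes together stood at 1177 CPM in WT and 2017 CPM in Ring1aKO. Within the depth bands only 6 of them were summed (Mki67, Top2a, Birc5, Cdk1, Ube2c and Cenpf), without Stmn1 and Hmgb2. These 6 came to more in WT in 4 of the 5 bands, for example to 2484 and 1333 CPM at 20000 UMIs or more, where WT has 2 cells. They came to more in Ring1aKO from 6000 to below 10000 UMIs (78.8 and 93.3 CPM). Cells with no UMI of these 6 genes, 129 in WT and 139 in Ring1aKO, could still carry Stmn1 and Hmgb2. Among them the ratio of the summed share was 0.36 and 6 members were at least 1.5-fold higher, beside 5.41% of 2938 genes. Among cells under 10000 UMIs, 178 and 168, the ratio was 0.28 and 2 members were higher, beside 4% of 2951 genes. Both restrictions were chosen after seeing the data. Summed markers of other cell types were low in this class, at 42.1 and 29.8 CPM for epithelial, 4.43 and 1.93 CPM for fibroblast and 9.60 and 15.4 CPM for erythroid genes in WT and Ring1aKO.

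**Figure D4:**
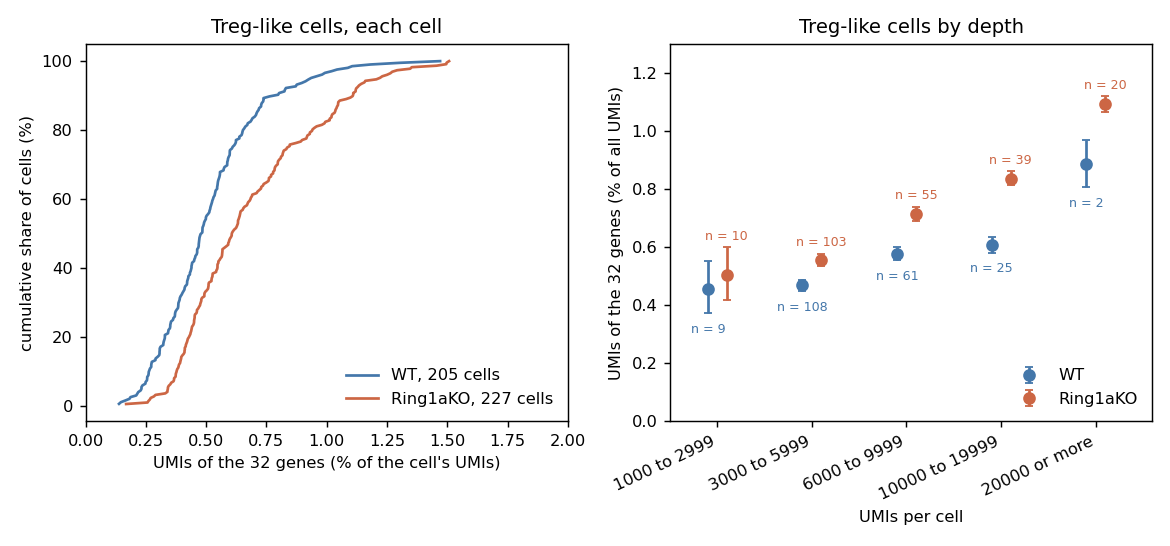
Left, the cumulative share of Treg-like cells (vertical axis, %) by the percentage of a cell's UMIs that came from the 32 genes, for 205 WT and 227 Ring1aKO cells. Right, the summed share by depth band with 95% Poisson intervals and cell numbers: the Ring1aKO points lie above the WT points in each band, from 0.504% against 0.455% in the shallowest to 1.09% against 0.885% in the deepest, where WT has 2 cells.

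Genes of mitochondrial respiration were also higher in Treg-like cells of the library labelled Ring1aKO. In this class 9.9% of all 2961 genes were at least 1.5-fold higher and 17.9% lower. Of 22 genes of the tricarboxylic acid cycle 15 passed, 6 were at least 1.5-fold higher and none lower, led by Idh3g (41.4 and 84.2 CPM, 1.01), Suclg1 (34.7 and 68.4 CPM, 0.96) and Mdh2 (157 and 288 CPM, 0.88). Of 35 nuclear genes of electron transport and ATP synthase 33 passed and 9 were higher, led by Cyc1 (53.9 and 114 CPM, 1.07), Uqcrc2 (0.95) and Atp5b (281 and 504 CPM, 0.84), with a median of 0.48 over the list. The 3 genes of the pentose phosphate pathway that passed had ratios of 0.54 (Tkt), 0.52 (Pgls) and 0.47 (Taldo1), all short of 1.5-fold. The other hypoxia response genes were divided, with 3 higher and 3 lower of 13 that passed out of 34. Hilpda, which holds back the breakdown of lipid droplets, stood at 181 and 410 CPM (1.18), Fam162a at 36.2 and 74.6 CPM (1.02) and Rora at 1143 and 606 CPM (-0.92). Their median was -0.05. Of 13 components of the HIF pathway 5 passed and 1, the coactivator Ep300, was lower (109 and 71.2 CPM, -0.61). None of the 23 other glycolysis genes passed in this class.

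Neutrophil-like cells showed differences in both directions. Of 17 members that passed, 3 were at least 1.5-fold higher and 4 lower, beside 7.75% and 18.3% of 1690 genes, and the median log2 ratio was -0.03 against -0.11 for all genes. Mif stood at 282 CPM (248 to 319) in WT and 139 CPM (118 to 163) in Ring1aKO (-1.02), and Hif1a at 271 and 143 CPM (-0.92). Gpi1 stood at 167 and 292 CPM (0.80), Vegfa at 105 and 176 CPM (0.74) and Ldha at 314 and 497 CPM (0.66). Pfkfb3 (-0.67) and Pfkp (-0.64), which both bear on the phosphofructokinase step, were lower. With ratios centred on the median of all genes neither was called. Then 4 members were higher and 2 lower, beside 11.4% and 13.8% of all genes. The glycolytic enzymes together took 0.394% in WT and 0.489% in Ring1aKO, the other members 0.282% and 0.252%. With Gapdh left out, the summed share of all members was 0.542% and 0.543%, so the higher neutrophil-like share in Ring1aKO rested on Gapdh (1340 and 1974 CPM). Among the other hypoxia genes, Ero1a was lower (150 and 65.7 CPM, -1.18), and Hilpda (380 and 799 CPM, 1.07), Hmox1 (88.1 and 161 CPM, 0.86) and Mxi1 (105 and 172 CPM, 0.70) were higher. Transketolase (Tkt), of the pentose phosphate pathway, stood at 62.1 and 221 CPM (1.81). Gate markers of the neutrophil-like class differed both ways. Retnlg (6601 and 19680 CPM) was higher in Ring1aKO and Csf3r (1299 and 919 CPM) lower, and their part in the ratios was not tested.

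Monocyte-like cells carried 21 members past the filter and none reached 1.5-fold in either direction, beside 5.07% and 11.2% of 2645 genes. Gapdh (1098 and 1518 CPM, 0.47), Ldha (351 and 478 CPM, 0.45) and Ndrg1 (154 and 209 CPM, 0.44) had the largest ratios, and the median of the members was 0.14 against -0.09 for all genes. Among monocyte-like cells under 10000 UMIs 1 of 21 members was higher, beside 4.79% of 2568 genes. In C1q macrophage-like cells 21 passed and 1 was lower, Pfkp (84.2 and 45.5 CPM, -0.88), beside 4.53% and 7.59% of 2607 genes. The median there was -0.04. Ddit4 (110 and 161 CPM, 0.55) and P4ha1 (77.3 and 59.8 CPM, -0.36) followed. In dendritic-like cells 2 of 18 were higher and 1 lower, beside 3.67% and 10.1% of 2589 genes. These were Vegfa (64.7 and 101 CPM, 0.64), Ndrg1 (158 and 242 CPM, 0.61) and Hif1a (142 and 93.7 CPM, -0.60). With ratios centred on the median of all genes 5 members were higher and none lower, beside 5.56% and 6.88% of all genes. Gate markers of the dendritic-like class differed both ways. Xcr1 (188 and 96.3 CPM) and Clec9a (84.1 and 44.5 CPM) were lower in Ring1aKO, Ccr7 (1006 and 1762 CPM) and Fscn1 (261 and 434 CPM) higher. Of 8 proliferation genes 5 passed there and 4 were at least 1.5-fold lower. The part of this makeup in the ratios was not tested.

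The other T cell classes showed smaller differences than Treg-like cells. In CD4 T-like cells Pgam1 was higher (75.3 and 117 CPM, 0.63) and Pfkp lower (156 and 99.2 CPM, -0.65) among 16 that passed, beside 2.35% and 11% of 2767 genes, and Ldha followed (438 and 648 CPM, 0.56). Neither call was kept in cells under 10000 UMIs, without the 10 deepest cells or as a mean over cells, and the lower one also not when centred or with the other denominator. The median over the members was 0.26 and over all genes -0.08. In CD8 T-like cells Hif1a was lower (196 and 117 CPM, -0.74) among 13 that passed, and none was higher, beside 9.9% lower and 2.53% higher of 2607 genes. Pfkp (-0.51) and Aldoa (0.47) had the next largest ratios. Among CD8 T-like cells under 10000 UMIs 2 of 12 members were higher, beside 2.9% of 2585 genes. With the other denominator 1 of 17 was higher, beside 3.17% of 3561 genes. The difference between the Treg-like and the CD4 T-like ratios was not tested, since each class came from 1 library per genotype.

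Innate lymphocytes were few, and their intervals wide. In ILC2-like cells (126 and 71 cells) Eno1 (103 and 196 CPM, 0.93, 0.43 to 1.43) and Ldha (473 and 858 CPM, 0.86, 0.63 to 1.09) were higher and Hk2 was lower (84.7 and 44.7 CPM, -0.86, -1.82 to -0.10) among 16 that passed, the last not with stricter gates or without the 10 deepest cells, beside 12.2% and 16.1% of 2614 genes. Among ILC2-like cells under 10000 UMIs (125 and 69 cells) 1 of 15 members was higher, beside 12.2% of 2593 genes. Eno1 and Ldha were thus not both called there. In NK-like cells (112 and 67 cells) Gpi1 was higher (132 and 206 CPM, 0.64, 0.19 to 1.07) and Hk2 lower (240 and 135 CPM, -0.81, -1.29 to -0.38, not with stricter gates) among 16 that passed, beside 5.35% and 13.6% of 2821 genes. Slc2a1 in NK-like cells had a ratio of 0.45 with an interval from -0.38 to 1.24, which includes 0. Free RNA, estimated from the immunoglobulin gene Igha, made up 3.08% of NK-like UMIs in WT and 11.4% in Ring1aKO. With the cell-free profile subtracted 1 of 16 NK-like members was higher and 1 lower, beside 6.07% and 14% of 2817 genes. Beyond this subtraction the part of free RNA in the NK-like ratios was not tested. Hilpda, the lipid droplet gene named above, stood at 832 CPM in WT and 1757 CPM in Ring1aKO ILC2-like cells (1.08).

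In the B lineage no member reached 1.5-fold. Of 12 that passed in B-like cells Hif1a (113 and 75.9 CPM, -0.58) came closest, beside 1.34% higher and 10.9% lower of 2608 genes, and Bnip3l (77.6 and 103 CPM, 0.41) and Aldoa (177 and 231 CPM, 0.38) followed. In plasma-like cells 6 passed, with Gapdh (383 and 313 CPM, -0.29), Mif (171 and 146 CPM, -0.23) and Pgk1 (64.0 and 55.9 CPM, -0.20) furthest from 0, beside 0.936% higher and 18.4% lower of 1068 genes. The direction in plasma-like cells turned to 0.13 when immunoglobulin, ribosomal protein and mitochondrial genes were left out of the denominator. Then 1 of 16 plasma-like members was higher and 1 lower, beside 2.78% and 7.26% of 3276 genes.

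Read by gene, Hif1a and Pfkp were the members lower in the most classes. Beside the counts that follow, 12.8% of all gene and class pairs were at least 1.5-fold lower and 5.25% higher. The class medians of all genes were below 0 as well, from -0.26 to -0.02. Hif1a had a ratio below 0 in 9 of the 10 classes where it passed, at least 1.5-fold lower in 4 of them (neutrophil-like, dendritic-like, Treg-like and CD8 T-like), and 0.23 in ILC2-like cells. Centring and the other denominator each ended the Treg-like and the dendritic-like call. Pfkp was lower in 3 of 9 classes, C1q macrophage-like, neutrophil-like and CD4 T-like. Centring ended its neutrophil-like and CD4 T-like calls. Ldha was higher in 3 of 11, the neutrophil-like, Treg-like and ILC2-like classes. Gpi1, Pgam1, Eno1 and Vegfa were each higher in 2 classes. Aldoa had a ratio above 0 in all 11 classes, from 0.003 in neutrophil-like to 0.66 in Treg-like cells, and Mif was the member past 1.5-fold in opposite directions. Of the 32 members 14 were past 1.5-fold in no class, among them the 9 that passed the filter in none.

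**Figure D5:**
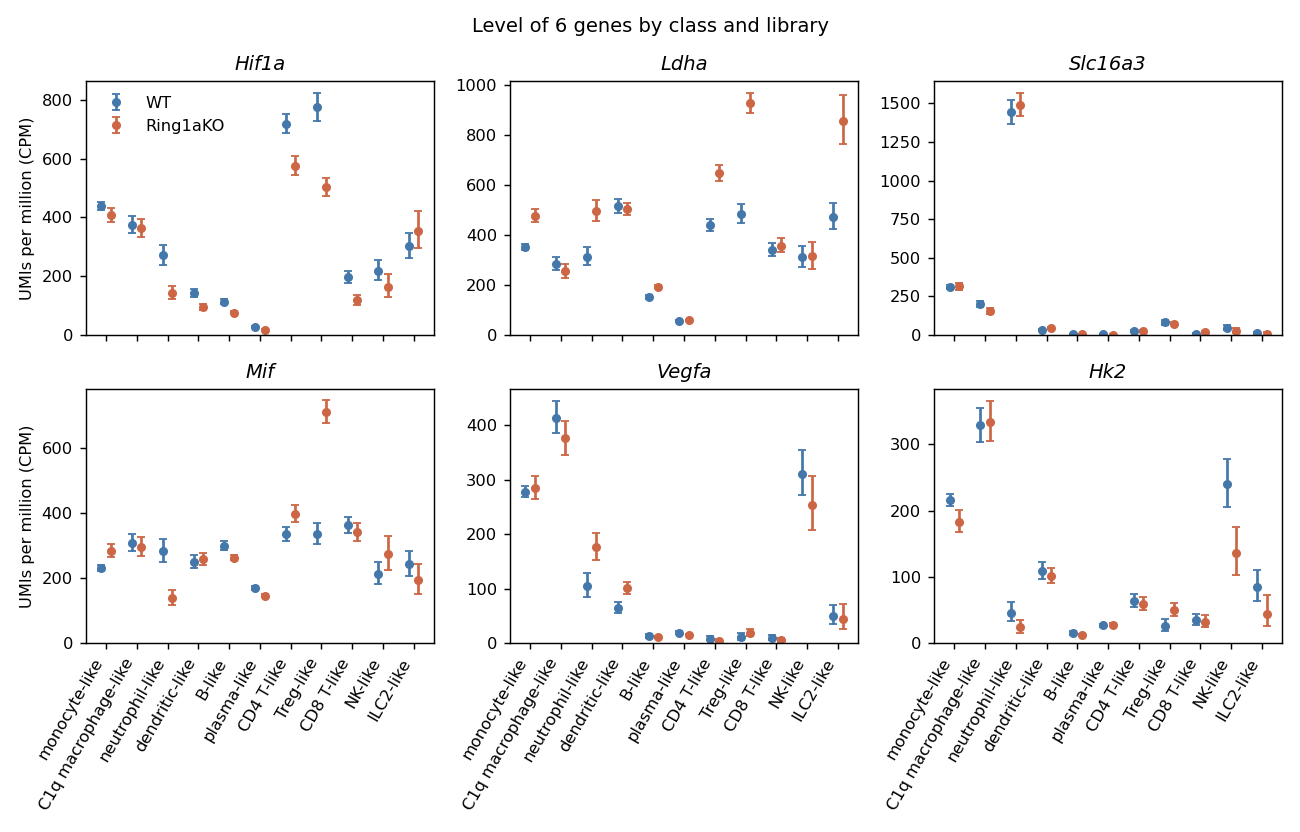
Points give the level (CPM, linear axis from 0) of Hif1a, Ldha, Slc16a3, Mif, Vegfa and Hk2 in the 11 classes for the 2 libraries, with 95% Poisson intervals. Slc16a3 stands at 1444 and 1493 CPM in neutrophil-like cells, Vegfa and Hk2 are highest in C1q macrophage-like cells of both libraries, and Mif differs most in Treg-like (335 and 711 CPM) and neutrophil-like cells (282 and 139 CPM).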

How the data were processed

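Colonic CD45+ cells of 1 pooled WT and 1 pooled Ring1aKO library were measured with 10x Genomics 3′ chemistry (v3 per the labels). The deposited matrices hold the authors' UMI counts per gene and barcode, unfiltered and not normalized. Their header names Cell Ranger 4, the submitters' processing notes name Cell Ranger 6.0.2 and mm39, and the study's methods give another release and mm10, so the build was not settled and coordinates are given for RefSeq windows only.

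Barcodes with at least 1000 UMIs, at least 500 genes and under 5% mitochondrial UMIs were kept. Classes were gated on summed marker UMIs per 10000 and on 2 or 3 detected markers, with Treg-like cells as T cells with a Foxp3 UMI and no UMI of Cd8a or Cd8b1, and CD4 T-like and CD8 T-like cells by Cd4 and Cd8b1 without Foxp3. Gate thresholds were set after seeing marker counts. No doublet caller was run. Barcodes that passed the gates of more than 1 lineage were left out, as were T cells of no class (721 and 872) and cells of no class (327 and 400). UMIs were summed per class. Ratios are log2, Ring1aKO over WT, with 1 UMI added to each sum, exact Poisson intervals for sums, exact binomial (Clopper-Pearson) intervals for shares and for ratios, at a level of 95%. A gene passed at a mean of at least 50 CPM and was called at 1.5-fold. With 1 library per group no test was made. The class medians of all genes ran from -0.26 in plasma-like to -0.02 in ILC2-like cells. Per class the text names the 3 members with the largest absolute ratio and those past 1.5-fold in the most classes, and up to 3 genes of each further list (4 where a list's count is named in full). The members and lists were chosen with earlier results of these data known.

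The fold and interval code was tested on simulated data with known changes. Alternatives numbered 20 planned and 7 added after seeing the data. Barcodes with fewer than 100 UMIs gave the cell-free profile. Python 3.11.15, numpy 2.4.6, scipy 1.17.1 and pandas 2.3.3 were used.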

Additional observations from a re-analysis of the deposited data

Results flagged for a closer look

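Mif differed by at least 1.5-fold in opposite directions in 2 classes, with a log2 ratio, Ring1aKO over WT, of 1.08 in Treg-like cells (335 and 711 CPM) and -1.02 in neutrophil-like cells (282 and 139 CPM). The difference between the classes was not tested, since each value compares 1 library with 1 library. Mif has near-identical copies in the genome that can share its reads.

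The 32 genes were also found outside cells. In barcodes with fewer than 100 UMIs, which the comparisons did not use, they took 0.327% of UMIs in WT and 0.307% in Ring1aKO, above the share in B-like and plasma-like cells and close to that over all kept cells (0.334% and 0.317%).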

How the results depend on the processing

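The summed share was higher in the library labelled Ring1aKO in 10 of 11 classes as reported, and in 8 (without Gapdh) to 11 under 12 alternatives, with a median over classes from 0.07 to 0.22. The plasma-like ratio (-0.19) turned to 0.13 with immunoglobulin, ribosomal protein and mitochondrial genes left out of the denominator and to 0.22 in cells under 10000 UMIs, where 16 WT cells remained. The cause was not tested. The Treg-like ratio (0.57) was 0.62 with that denominator, 0.51 without Gapdh, 0.41 as a mean over cells and 0.31 with cells thinned to 1000 UMIs. Thinning and the mean over cells both weigh each cell alike and estimate the same quantity, and the thinned value is 1 random draw with added counting error. Under alternatives chosen after seeing the data the Treg-like ratio was 0.28 in cells under 10000 UMIs, 0.36 in cells without a UMI of 6 proliferation genes and 0.51 without the 10 deepest cells of each library. Treg-like members at least 1.5-fold higher numbered 11 as reported (9.9% of all genes), 2 at 2-fold (2.2%), 2 under 10000 UMIs (4%), 6 without proliferation UMIs (5.41%) and 7 as a mean over cells (4.99%). Over all classes the 20 higher pairs of 174 that passed (5.25% of all gene and class pairs) became 48 of 350 without the filter (17.6%) and 2 of 174 at 2-fold (1.26%). In these last settings the share of higher member pairs was not above that of all pairs. The 11 lower pairs of 174 (12.8%) became 23 of 238 with a filter of 20 CPM (15.2%) and 53 of 350 without one (25.1%). They became 1 at 2-fold (3.18%) and 6 when ratios were centred on the median of all genes (9.65%). For single members, 507 of 522 values kept their sign. These were computed only with at least 2000 UMIs per cell, as a mean over cells and with the cell-free profile subtracted. Centring, the other denominator, thinning and the restrictions on depth and proliferation were not part of this count. No paired analysis was possible because each group has 1 library. The NK-like and ILC2-like ratios rest on 67 and 71 Ring1aKO cells.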
